A study of Mus musculus with 6 samples.

Results

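The IL-17 and IL-23 cytokines and their receptors are the subject here, as 10 genes picked by symbol: the ligands *Il17a*, *Il17b*, *Il17c*, *Il17d* and *Il17f*, the IL-23 subunits *Il23a* and *Il12b*, and the receptor chains *Il17ra*, *Il17rc* and *Il23r*. Each of the 10 had 1 probe set, out of 24647 genes named on the arrays. The study asked how ectopic Cdx2, an intestinal transcription factor, changes gene expression in Barrett's-like metaplasia. Total RNA of nodular metaplasia from the squamo-columnar junction (SCJ) was hybridized to Mouse Gene 2.0 ST Affymetrix arrays, with 3 samples from double transgenic *K14-Cdx2::L2-IL-1β* animals (numbered 52540, 52541 and 52542) and 3 from *L2-IL-1β* animals (numbered 52543, 52544 and 52545). All mice were of strain C57/BL6, and all were given 0.2% deoxycholic acid, a bile acid, in the drinking water from 8 weeks of age for 12 months. Both groups carried *L2-IL-1β*, in which an Epstein-Barr virus promoter drives the human IL-1β gene in squamous epithelium of the mouth, esophagus and forestomach. The *K14-Cdx2* transgene, which uses the keratin 14 promoter of basal squamous cells, was carried by the first group alone. *L2-IL-1β* mice were therefore the controls, and neither untreated mice nor mice without the IL-1β transgene were analysed here.

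IL-17A and IL-17F are secreted as dimers by Th17 cells, by some γδ T cells and by type 3 innate lymphoid cells. They bind a receptor of the chains IL-17RA and IL-17RC, which is found on epithelial and stromal cells, and induce chemokines that recruit neutrophils as well as antimicrobial proteins. IL-23 is a dimer of p19, the product of *Il23a*, and p40, the product of *Il12b*, and it comes mainly from dendritic cells and macrophages. It acts through IL-23R and IL-12Rβ1 to sustain the lymphocytes that make IL-17.

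*Il17a* and *Il17f* are neighbours on chromosome 1, on opposite strands and with 42654 bases between their transcripts (NCBIM37, the build of the array annotation). Their promoters, and that of the epithelial cytokine *Il17c*, are shown because these 3 ligands carried the largest differences among the IL-17 family members. Each run is the 250 bases before the gene's start in RefSeq (GRCm38.p6), read on the gene's strand: chr1:20730655-20730904 on the plus strand for *Il17a*, chr1:20784271-20784520 on the minus strand for *Il17f*, and chr8:122421770-122422019 on the plus strand for *Il17c*. Capitals mark TTTAT (the core letters bound by CDX factors), GGGNNNNNCC (a loose NF-κB site) and TATAAA (the TATA box), each searched on both strands.
Il17a: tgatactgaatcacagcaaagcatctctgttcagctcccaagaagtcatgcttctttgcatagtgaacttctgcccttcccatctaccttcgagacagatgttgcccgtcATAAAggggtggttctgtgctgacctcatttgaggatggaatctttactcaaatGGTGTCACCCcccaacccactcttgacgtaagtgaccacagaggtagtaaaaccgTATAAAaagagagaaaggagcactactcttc
Il17f: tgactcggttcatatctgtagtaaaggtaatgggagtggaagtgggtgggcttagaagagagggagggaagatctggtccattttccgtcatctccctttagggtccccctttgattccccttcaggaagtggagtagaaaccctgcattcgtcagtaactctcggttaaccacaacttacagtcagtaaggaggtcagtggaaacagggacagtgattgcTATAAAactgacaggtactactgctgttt
Il17c: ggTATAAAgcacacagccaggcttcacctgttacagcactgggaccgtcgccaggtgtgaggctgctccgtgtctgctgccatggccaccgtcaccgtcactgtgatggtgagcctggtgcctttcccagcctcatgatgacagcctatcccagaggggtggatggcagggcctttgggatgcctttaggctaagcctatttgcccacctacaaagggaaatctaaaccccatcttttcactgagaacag

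The *Il17a* window held ATAAA, the reverse complement of the CDX letters, at 140 and at 30 bases before the start. The *Il17f* window held it once, at 28 bases before the start. TATAAA contains ATAAA, so that every TATAAA match is also counted as a match to the CDX letters. The copies nearest the start of *Il17a* and *Il17f*, and the single copy of *Il17c*, at 247 bases, are such repeats of a TATAAA match. The *Il17a* copy at 140 bases lies outside TATAAA. The NF-κB letters occurred in *Il17a* alone of these 3 windows, at 86 bases. Such matches are common: of 32851 RefSeq windows of the same length, 37.3% held TTTAT, 45.8% GGGNNNNNCC and 12.4% TATAAA. A RefSeq promoter was matched for 7 of the 10 genes.

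Values are log2 intensities, on which 1 unit is a 2-fold difference, and a gene was called when its limma p, adjusted over all 34365 probe sets, was under 0.10. Per-sample values are given in the order of the sample numbers, first with and then without *K14-Cdx2*. *Cdx2* checked the labels: it read 9.04, 9.72 and 9.83 in the *K14-Cdx2::L2-IL-1β* samples against 6.74, 6.87 and 6.80 in the *L2-IL-1β* samples (adjusted p = 0.0105). 3 samples stood apart, all of them *K14-Cdx2::L2-IL-1β*. Sample 52540 had a mean correlation over probe sets of 0.987 with its own genotype and 0.990 with the other. Sample 52541 was the single one with high values of Y-linked genes (median log2 difference of 4 genes from the *L2-IL-1β* mean of 4.25), and sample 52542 had a median difference of 4.37 over 8 pancreatic acinar markers, against −0.07 to 0.24 in the other samples. The study describes the samples of a genotype as biological replicates, while the labels do not tie each one to a mouse, so p-values measure the spread between these samples.

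3 of the 10 genes were lower in *K14-Cdx2::L2-IL-1β* metaplasia: *Il17a* by 2.88-fold, *Il23a* by 2.14-fold and *Il17f* by 1.49-fold. Over all probe sets, 1.26% were called lower. No member was called higher (0.576% of all probe sets were), none was higher at an unadjusted p under 0.05, and SAM, the test named in the methods, also called none higher. *Il17a* and *Il23a* were both called lower and past 2-fold, which held for 0.335% of all probe sets tested. All 3 *K14-Cdx2::L2-IL-1β* values lay below all 3 *L2-IL-1β* values for 6 members (*Il17a*, *Il17f*, *Il17c*, *Il23a*, *Il17ra* and *Il12b*), against 11.5% of all probe sets, and above them for 0 members, against 8.3%. The median log2 fold change of the 10 genes was −0.24, beside −0.01 over all probe sets. These are bulk samples, so that fewer cells of a type and less RNA per cell cannot be told apart.

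**Figure D1:**
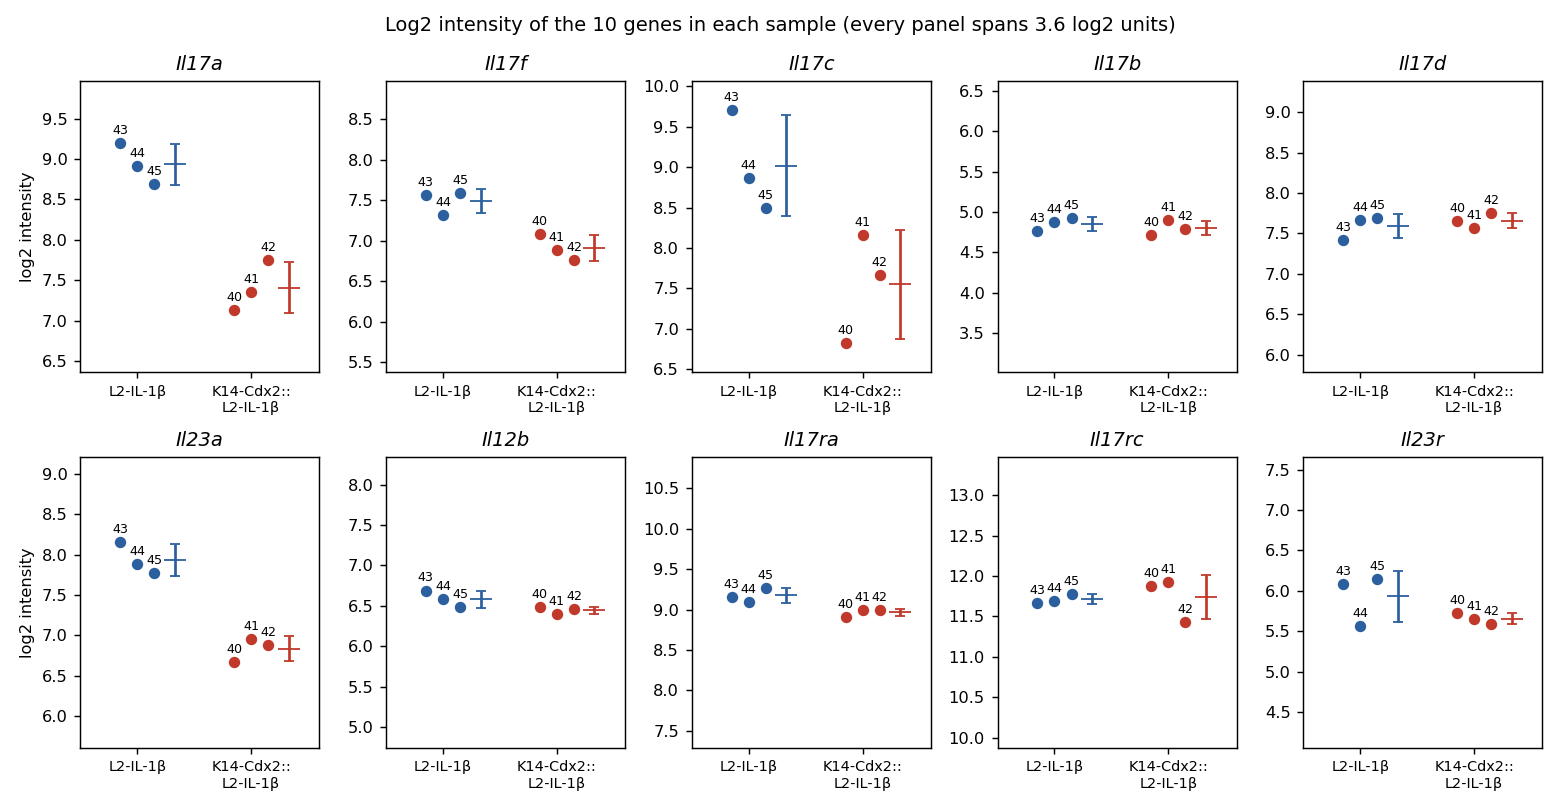
Log2 intensity (y axis) of each of the 10 genes in each sample, labelled by the last digits of its number, with *L2-IL-1β* samples in blue and *K14-Cdx2::L2-IL-1β* samples in red. The bars give the mean ± SD (n = 3) and every panel spans the same range, so that the groups of *Il17a* are 0.94 apart and those of *Il23a* 0.81 apart, whereas those of *Il17b*, *Il17d*, *Il17rc* and *Il23r* overlap.

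*Il17a* (chr1:20720986-20724577, NCBIM37) read 7.13, 7.35 and 7.75 with *K14-Cdx2* and 9.20, 8.91 and 8.69 without it. The groups were separated by 0.94, more than the 0.62 and 0.51 spanned within them. The means were 7.41 ± 0.31 and 8.93 ± 0.26 (SD, n = 3). The log2 fold change was −1.52 (SE 0.19, 95% interval −1.98 to −1.07, adjusted p = 0.0416), so that *Il17a* stood at 34.8% of its level in the controls. The exact two-sided permutation test gave p = 0.1, the smallest that 3 samples against 3 allow. Without sample 52540 the log2 fold change was −1.38 (adjusted p = 0.0444) and without sample 52542 it was −1.69 (adjusted p = 0.0257). Leaving out 52541, 52543, 52544 or 52545 raised the adjusted p above the threshold, to between 0.113 and 0.179, at log2 fold changes of −1.39 to −1.65.

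*Il17f* (chr1:20767232-20774351), whose product also pairs with IL-17A, differed less. It read 7.08, 6.89 and 6.76 with *K14-Cdx2* and 7.56, 7.32 and 7.59 without it, with 0.24 between the groups. The means were 6.91 ± 0.16 and 7.49 ± 0.15 (SD, n = 3) and the log2 fold change was −0.58 (SE 0.11, 95% interval −0.85 to −0.31, adjusted p = 0.0959). Both neighbours were thus lower in each *K14-Cdx2::L2-IL-1β* sample, but in opposite order among the 3 samples: 52542 was the highest for *Il17a* and the lowest for *Il17f*. The *Il17f* call lay close to the threshold and held without sample 52540 (−0.66, adjusted p = 0.0517). Leaving out any of the other samples ended it, with adjusted p between 0.145 (without 52542, at −0.50) and 0.355 (without 52543, at −0.54).

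*Il17c* (chr8:124945920-124947539), which encodes a cytokine that epithelial cells release and that signals through IL-17RA and IL-17RE, had a difference as large as that of *Il17a* with a much wider spread. Its values were 6.82, 8.16 and 7.67 with *K14-Cdx2* and 9.71, 8.86 and 8.49 without it. The groups did not overlap, but the 0.33 between them was small beside the spread within each, with means of 7.55 ± 0.68 and 9.02 ± 0.62 (SD, n = 3). The log2 fold change was −1.47 (SE 0.42, 95% interval −2.47 to −0.47) and missed the threshold over all probe sets (adjusted p = 0.202). It ran from −1.11 without sample 52540 to −1.78 without sample 52541, and *Il17c* was called under none of 15 other settings. The study's own list of changed genes, made with SAM and a 2-fold limit, does hold *Il17c*.

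The other ligands, *Il17b* and *Il17d*, gave no call. *Il17b*, whose product binds IL-17RB, read 4.72, 4.90 and 4.79 against 4.76, 4.87 and 4.92, a log2 fold change of −0.05 (95% interval −0.24 to 0.14, adjusted p = 0.842). It was dim, with a mean below 6.64, the median of the probe set means. *Il17d* read 7.65, 7.57 and 7.75 against 7.42, 7.66 and 7.69, with overlapping groups and a log2 fold change of 0.06 (95% interval −0.16 to 0.29, adjusted p = 0.825).

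**Figure D2:**
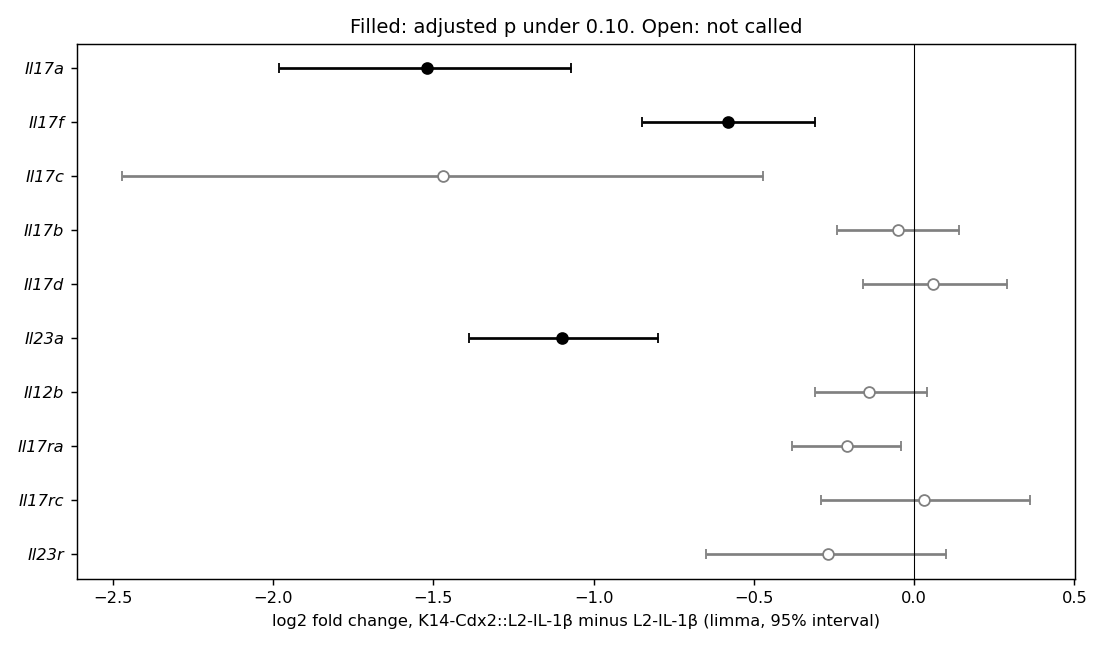
Log2 fold change of the 10 genes, *K14-Cdx2::L2-IL-1β* minus *L2-IL-1β* (x axis), with the 95% interval from limma and filled points for the 3 genes called. *Il17a* (−1.52), *Il23a* (−1.10) and *Il17f* (−0.58) are filled, *Il17c* (−1.47) has the widest interval, and the remaining genes lie between −0.27 and 0.06.

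Of the IL-23 subunits, *Il23a* alone was called. *Il23a* (chr10:127733196-127735140), which encodes p19, read 6.67, 6.96 and 6.88 with *K14-Cdx2* and 8.15, 7.88 and 7.77 without it. The 0.81 between the groups was over double the spread of either. The means were 6.84 ± 0.15 and 7.93 ± 0.19 (SD, n = 3). The log2 fold change was −1.10 (SE 0.12, 95% interval −1.39 to −0.80, adjusted p = 0.029), the smallest p of the 10 genes. The call held without sample 52540 (−1.01, adjusted p = 0.0411) and without sample 52542 (−1.12, adjusted p = 0.0469). Leaving out 52541 ended it (−1.16, adjusted p = 0.101), as did leaving out 52545 (adjusted p = 0.105), 52544 (0.129) or 52543 (0.152), at log2 fold changes of −0.99 to −1.18.

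*Il12b*, which encodes the p40 subunit that IL-23 shares with IL-12, read 6.48, 6.40 and 6.46 against 6.69, 6.58 and 6.48. Its log2 fold change was −0.14 (95% interval −0.31 to 0.04, adjusted p = 0.493). The highest *K14-Cdx2::L2-IL-1β* value and the lowest *L2-IL-1β* value were 0.0005 apart, so that this gene counts as not overlapping by next to nothing, and it was dim, with a mean under 6.64. The interval of *Il12b* does not reach that of *Il23a*, but the difference between these 2 genes was not tested, since probe sets differ in how strongly they respond.

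The receptor chains gave no call. *Il17ra*, the chain shared by the receptors of IL-17A, IL-17F and IL-17C, read 8.91, 8.99 and 8.99 with *K14-Cdx2* and 9.16, 9.09 and 9.27 without it. The groups did not overlap, with 0.10 between them, and the log2 fold change was −0.21 (SE 0.07, 95% interval −0.38 to −0.04, adjusted p = 0.279). *Il17rc*, which pairs with IL-17RA to bind IL-17A and IL-17F, read 11.88, 11.92 and 11.43 against 11.66, 11.69 and 11.78. Sample 52542 was the lowest of all 6 and the other 2 of its group the highest, and the log2 fold change was 0.03 (95% interval −0.29 to 0.36, adjusted p = 0.946). *Il23r*, the chain specific to IL-23, was dim at 5.73, 5.65 and 5.59 against 6.08, 5.57 and 6.15. Its lowest value was that of an *L2-IL-1β* sample, 52544, and its log2 fold change was −0.27 (95% interval −0.65 to 0.10, adjusted p = 0.514). A fall of *Il23r* by up to 0.65 on the log2 scale lies within that interval.

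Other genes of the pathway were taken from 5 lists. IL-17 target genes, which encode chemokines, antimicrobial proteins and proteases, had the lowest median of these lists: 7 of 29 were called lower, 27 of 29 had a negative log2 fold change, and 16 had no overlap between the groups, all lower. Over all probe sets these shares were 1.26%, 52.7% and 11.5%. That median log2 fold change was −0.50. *S100a9*, a subunit of the calcium-binding protein calprotectin of neutrophils and inflamed epithelium, read 9.42, 9.55 and 9.65 with *K14-Cdx2* and 11.58, 11.22 and 11.53 without it. The log2 fold change of *S100a9* was −1.90 (adjusted p = 0.00687), and that of its partner *S100a8* was −1.72 (adjusted p = 0.0212). *Lcn2*, which encodes a protein that binds bacterial siderophores, came out at −1.47 on that scale, a fall (adjusted p = 0.0265). *Cxcl1*, a chemokine that attracts neutrophils, fell by 0.49 (adjusted p = 0.0649), and *Cxcl3*, *S100a7a* and *Defb4* were the other genes called. Some targets with large differences were not called, such as the β-defensin gene *Defb3* at −1.98 (95% interval −3.16 to −0.80, adjusted p = 0.161). Others were level or near the floor, such as *Il6*, at 4.60 to 4.68 in all 6 samples. Leaving out sample 52540 raised the number of targets called lower to 12, leaving out 52541 or 52542 brought it to 4, 52544 to 2, and 52543 or 52545 to 1. *S100a8*, *S100a9* and *Lcn2* are also abundant in neutrophils, whose markers are given below with the other cell types.

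Of 20 genes of IL-17 receptor signalling, 2 were called lower, beside 1.26% of all probe sets, and the median log2 fold change was −0.05. These were *Nfkbiz* (−0.63, adjusted p = 0.0479), a nuclear cofactor that many IL-17 target genes need, and *Zc3h12a* (−0.89, adjusted p = 0.0743), an RNase that degrades cytokine mRNAs. *Nfkbiz* read 9.69, 9.81 and 9.61 against 10.34, 10.44 and 10.21, with no overlap. The adaptor *Traf3ip2*, which docks on the IL-17 receptor, had a log2 fold change of 0.01 (95% interval −0.19 to 0.22). Of 5 genes of IL-23 receptor signalling, *Stat4* was called, at −0.74 (adjusted p = 0.0592). It is a transcription factor downstream of IL-12 and IL-23. *Jak2*, *Tyk2*, *Stat3* and *Socs3* lay between −0.20 and −0.00. Both lists, and that of the lymphocytes, held no call without sample 52541, 52543, 52544 or 52545.

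Of 15 genes of IL-17-producing lymphocytes, 3 were called lower, beside 1.26% of all probe sets, and the median log2 fold change was −0.03. *Blk* encodes B lymphoid kinase, which IL-17-producing γδ T cells of mice also use, and bulk samples do not show which cells its RNA came from. *Blk* read 7.47, 7.14 and 6.75 against 8.46, 8.29 and 8.21 (log2 fold change −1.20, adjusted p = 0.0549). For *Cd163l1*, a scavenger receptor gene, it was −0.82 (adjusted p = 0.0508). *Batf*, a transcription factor needed for Th17 cells, differed less, at −0.35 (adjusted p = 0.091). *Il22*, a cytokine often made with IL-17, was dim, at 3.49 to 3.54 in all samples.

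Of 10 other subunits of the IL-17 and IL-12 families, 2 were called lower, beside 1.26% of all probe sets, and the median log2 fold change was −0.09. *Il27ra*, the receptor chain of IL-27, read 7.47, 7.60 and 7.24 against 8.65, 8.55 and 8.48 (log2 fold change −1.13, adjusted p = 0.0212). *Ebi3*, a subunit of IL-27, differed by −0.63 (adjusted p = 0.0551), a call that was lost when its probe sets were averaged. Of this list 1 call was left without sample 52541 and 0 without 52543, 52544 or 52545. *Il12rb2*, a receptor chain of IL-12 that is not part of the IL-23 receptor, had the opposite sign. Its values were 9.41, 9.20 and 7.98 with *K14-Cdx2* and 7.34, 7.77 and 7.11 without it, without overlap but not called (log2 fold change 1.46, 95% interval 0.54 to 2.37, adjusted p = 0.176). No gene of the 5 lists was called higher by limma, beside 0.576% of all probe sets. At an unadjusted p under 0.05 *Il12rb2* was the 1 gene higher, and SAM called 1 gene of the family subunits higher and none of the other lists.

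**Figure D3:**
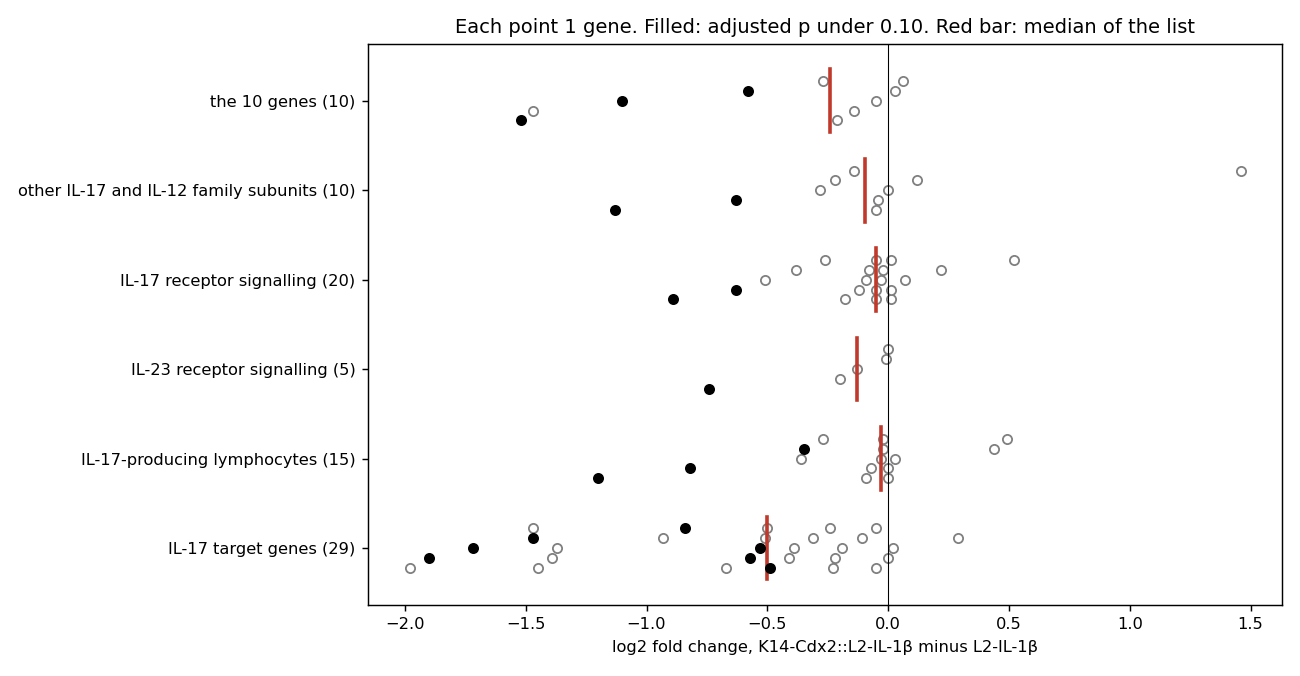
Log2 fold change (x axis) of each gene in the 10-gene set and in the 5 pathway lists, with the number of genes in brackets, filled points for genes called and a red bar at the median of the list. The target genes have the lowest median, −0.50, and the open point far to the right is *Il12rb2* at 1.46.

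Most markers of immune cells had lower values in the same samples as *Il17a*, *Il17f* and *Il23a*. Over all probe sets, 1.26% were called lower, 11.5% did not overlap on the lower side and 8.3% on the higher side. Of 10 pan-leukocyte markers, 2 were called lower (*Cd53* and *Was*) and 9 did not overlap, all lower. Their summed log2 values were 77.9 to 82.6 in the double transgenic samples and 85.6 to 87.6 in the controls. T cell markers summed to 103.8 to 110.2 and 113.2 to 113.7. Of 15, 2 were called lower (*Cd5* and *Zap70*), 8 did not overlap on the lower side and 1 (*Cd8a*) on the higher side. The log2 fold change was negative for 11 and not for 4: *Cd8b1* (0.37), *Cd8a* (0.30), *Lck* (0.17) and *Cd28* (0.00). For dendritic cells and macrophages, the sums were 92.4 to 96.1 and 97.5 to 98.4, and 1 of 12 markers (*Flt3*) was called lower. In this list 9 markers had a negative log2 fold change and 3 a positive one, *Mrc1* (0.57, adjusted p = 0.319), *Xcr1* (0.12) and *Emr1* (0.05), all with overlapping groups. Neutrophil markers had the lowest median log2 fold change of these lists, −0.76. Their sums were 82.4 to 85.8 and 90.3 to 91.9, and 4 of 11 were called lower (*Ly6g*, *Mmp8*, *Ltf* and *Trem1*). The log2 fold change was negative for 8, while *Camp* and *Ngp* (0.00, both dim) and *Cd177* (0.02) were level. No marker can be at 0 on the scale of log2 intensity. The part of these cells in the lower *Il17a*, *Il17f* and *Il23a* values was not tested.

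Within the *K14-Cdx2::L2-IL-1β* group the order of the samples was not shared. Sample 52542 lay furthest below the *L2-IL-1β* mean for the pan-leukocyte markers (median −0.82, against −0.52 in 52540 and −0.34 in 52541) and for the T cell markers (−0.56, against −0.20 and −0.19). *Il17f* was also lowest in this sample (−0.73, against −0.41 in 52540 and −0.59 in 52541). *Il17a*, in contrast, was closest to the controls in 52542 (−1.19, against −1.81 in 52540 and −1.58 in 52541), and *Il23a* was lowest in 52540 (−1.26, against −0.98 and −1.05). *Il17c* was also lowest in 52540, at −2.20. The sums of epithelial markers overlapped between the groups. Squamous markers summed to 148.7 to 151.5 against 150.6 to 151.5, with 1 of 12 (*Krt14*) called lower, 5 at an unadjusted p under 0.05 (*Ivl* higher, the others lower) and 4 not overlapping on the lower side. Over all probe sets, 1.26% were called lower and 11.5% did not overlap on the lower side. Columnar markers summed to 137.8 to 149.1 against 136.9 to 143.2, with none of 12 called by limma and 1 (*Muc5ac*, higher) at an unadjusted p under 0.05. Their log2 fold change was positive for 10 and negative for 2, with a median of 0.30. By sample, the median difference from the *L2-IL-1β* mean was −0.14, 0.28 and 0.83 with *K14-Cdx2*, highest in 52542. It was −0.05, 0.29 and −0.20 without *K14-Cdx2*.

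**Figure D4:**
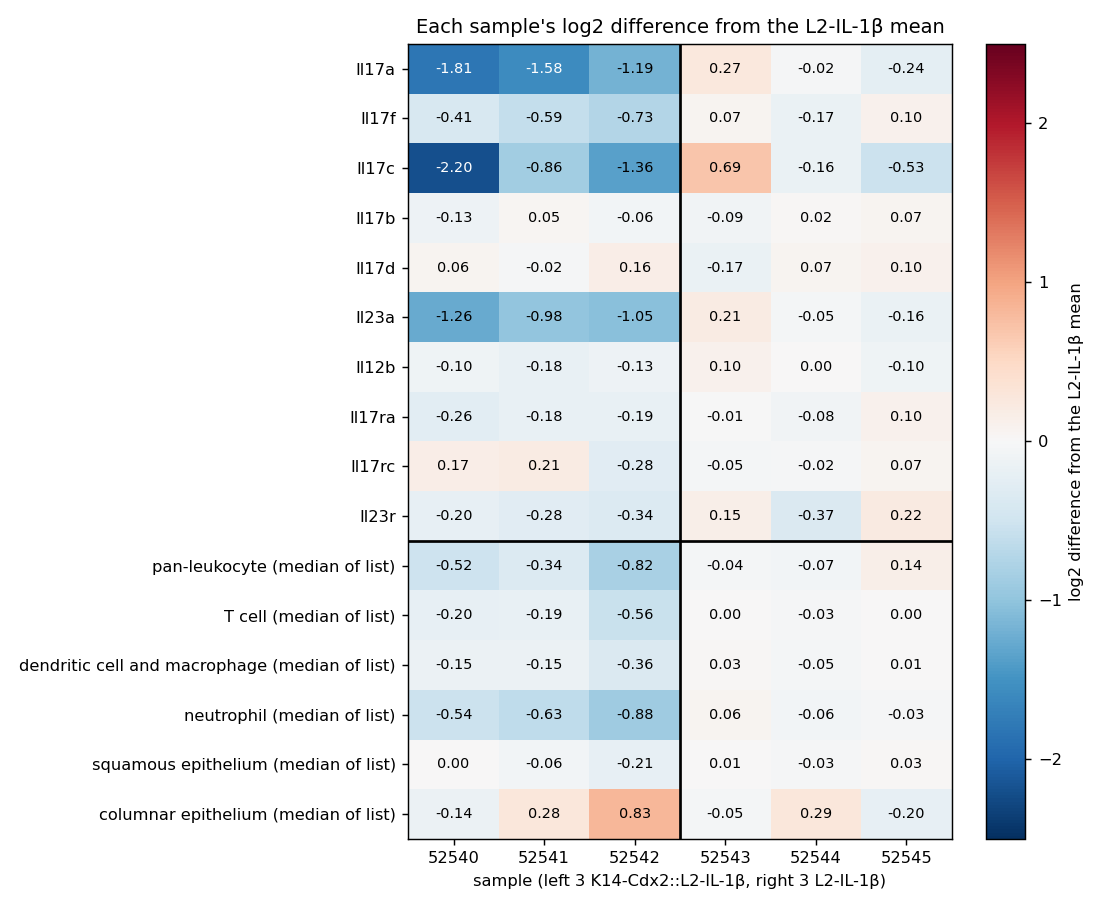
Log2 difference of each sample (columns) from the mean of the *L2-IL-1β* samples, for the 10 genes and for the median of 6 marker lists (rows), with blue for lower and red for higher. *Il17a*, *Il17c* and *Il23a* are deepest in sample 52540, whereas the leukocyte, T cell and neutrophil medians are deepest in sample 52542.

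Genes whose values followed those of the 3 called members most closely over the 6 samples were picked from 22478 genes by Pearson's r, as a description. With groups this far apart, most of r is the difference between the genotypes, and 0.841% (*Il17a*), 1.17% (*Il17f*) and 1.02% (*Il23a*) of genes passed 0.95. *Batf* was the closest to *Il17a* (r = 0.999), reading 6.68, 6.71 and 6.80 against 7.14, 7.08 and 7.02, followed by *Gm20077* (0.9943) and the lactate transporter gene *Slc16a1* (0.9934). Closest to *Il17f* were *Ube4b* (0.9996), *Fgd3* (0.9994) and *Igsf3* (0.9976). Closest to *Il23a* were *Rpgr* (0.9966), *Olfm4* (0.9963) and *Bhlhe22* (0.9963). *Olfm4*, a marker of intestinal crypts and of neutrophils, had the largest difference of these genes, from 8.47, 8.80 and 8.86 to 11.11, 10.69 and 10.29 (log2 fold change −1.99, adjusted p = 0.0265).

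The calls of *Il17a*, *Il23a* and *Il17f* varied with the setting, whereas the direction did not. *Il17a* and *Il23a* were each called under 10 of 15 other settings and *Il17f* under 8 of 15, always with a negative log2 fold change. Those 15 include the series matrix table, whose values were identical, so that its outcome was fixed. Averaging or filtering probe sets also left the values of these genes unchanged and altered only the other probe sets fitted with them. The rebuilt SAM gave a q, as a fraction, of 0.00864 for *Il17a*, 0.00752 for *Il23a*, 0.0409 for *Il17f* and 0.119 for *Il17c*. The study's own SAM list does hold *Il17c*, so the rebuilt test differs from it on this gene. Why it differs was not tested. When every probe set was tested on its own with equal variances, none of the 34365 passed, and the adjusted p was 0.222, 0.194 and 0.287 for *Il17a*, *Il23a* and *Il17f*.

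**Figure D5:**
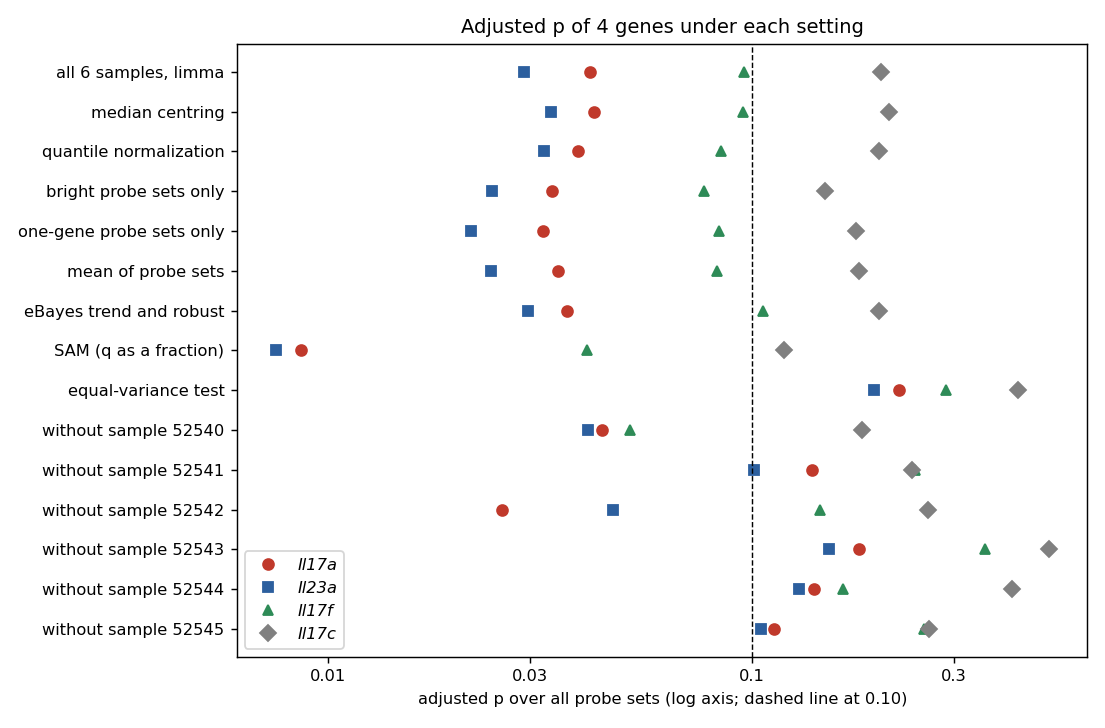
P of *Il17a*, *Il23a*, *Il17f* and *Il17c* adjusted over all probe sets (x axis, log scale) under each setting (y axis), with SAM's q as a fraction and a dashed line at the threshold of 0.10. *Il23a* and *Il17a* are right of the line in the equal-variance test and without sample 52541, 52543, 52544 or 52545, and *Il17c* is right of it in every setting.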

How the data were processed

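Metaplastic nodules of 3 *K14-Cdx2::L2-IL-1β* and 3 *L2-IL-1β* samples were profiled on Mouse Gene 2.0 ST arrays (RNeasy extraction, WT Expression Kit) and grouped by genotype label. The authors deposited log2 intensities per probe set, already normalized between arrays (array medians 6.62 to 6.65). The sources used here do not say how probe sets were summarised or with which software. The submitters' notes name the build mm8, while the array annotation gives NCBIM37 positions. The authors' own comparison columns (ratio, fold change, SAM score, q and p) were not used. The 2 tables with values per array were identical.

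The 34365 probe sets were fitted with limma 3.58.1 (R 4.3.3; lmFit, eBayes) without covariates, all 6 samples entering, and p-values were adjusted by Benjamini-Hochberg over all probe sets. Genes with several probe sets were represented by the brightest. A gene was called at an adjusted p under 0.10, the limit on the false discovery rate that the study joins to a 2-fold limit in its list of genes. For each member, an exact permutation test of the difference in means (two-sided, scipy 1.17.1) was run too. SAM was rebuilt with all 20 relabellings (added constant 0.0336). The fit was tested on simulated data first. Precision is limited by the 6 arrays.

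The 10 genes, the 5 pathway lists and the 8 marker lists (163 of 164 entries found) were chosen with earlier results of these data known. Named genes are all members, up to 4 genes per pathway list with the smallest p among those called, and the 3 genes most alike to each called member. *Il12rb2*, *Traf3ip2*, *Defb3*, *Il6*, *Il22*, the other signalling genes and the remaining called genes were named after their values were seen. Alternatives were median centring, quantile normalization, a filter on dim probe sets, 1-gene probe sets, the mean of probe sets, other variance models, SAM, the series matrix table, stricter thresholds and leaving out each sample. Promoter sequences are from RefSeq.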

Additional observations from a re-analysis of the deposited data

How the results depend on the processing

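The log2 fold change of 8 members kept its sign under all alternatives run, though only renormalization and leaving out samples could change it. *Il17d*, at 0.06, ranged from −0.02 (without sample 52543) to 0.11 when samples were left out, and *Il17rc*, at 0.03, from −0.06 (without 52541; −0.03 without 52540) to 0.19. Ranges for the called genes were −1.69 to −1.38 for *Il17a*, −1.18 to −0.99 for *Il23a* and −0.66 to −0.50 for *Il17f*, and *Il17f* was not called with a trended, robust eBayes (adjusted p = 0.106). The count of members called lower ranged from 0 to 3 when samples were left out, being 3 without 52540, 2 without 52542 and 0 without 52541, 52543, 52544 or 52545, and was 0 in the equal-variance test. Fewer samples were fitted in those settings: over all probe sets, lower and higher calls numbered 433 and 198 with 6 samples, 1275 and 751 without 52540, 415 and 216 without 52542, 65 and 7 without 52541, 42 and 5 without 52544, 33 and 7 without 52545, and 13 and 0 without 52543. Why the count rose without 52540 was not tested. SAM called 1028 lower and 624 higher, an adjusted p under 0.05 gave 144 and 46, and 2-fold gave 115 and 22.

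For the pathway lists, the equal-variance test called 0 genes in all 5. At an adjusted p under 0.05 the genes called lower were 1 of the family subunits, 1 of IL-17 receptor signalling, 0 of IL-23 receptor signalling, 0 of the lymphocyte genes and 3 of the target genes. With a 2-fold limit they were 1, 0, 0, 1 and 3. Averaging probe sets left 1 family subunit. SAM called 14 target genes lower and 1 family subunit higher. Leaving out samples gave ranges of 0 to 2 family subunits, 0 to 3 IL-17 receptor signalling genes, 0 to 1 IL-23 receptor signalling genes, 0 to 3 lymphocyte genes and 1 to 12 target genes called lower, and of 0 to 1 family subunits and 0 to 1 target genes called higher. Of 204 such counts, lower and higher together, 157 were within 1.5 times the reported one. Many of those 157 are counts of genes called higher that were 0 and stayed at 0, or come from the identical series matrix table, which could not differ. They say little about how steady the counts of genes called lower were. No paired analysis was possible because no number is shared between the genotypes. The dim genes *Il12b*, *Il23r* and *Il17b* have intensities below the median of all probe sets, which limits what differences can be seen.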
